A study of Rattus norvegicus with 21 samples.

Results

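The genes described here encode subunits of the receptors for glutamate, GABA and glycine, the fast amino acid transmitters of the spinal cord. Members were chosen by gene symbol alone: every probe annotated as an AMPA (Gria), kainate (Grik), NMDA (Grin1, Grin2, Grin3), delta (Grid), metabotropic glutamate (Grm), GABA-A (Gabr), GABA-B (Gabbr) or glycine (Glra, Glrb) receptor subunit. That rule gave 42 genes of the 4153 named on the array, through 43 of its 5376 probes, since Grm7 had a probe on each of source plates 39 and 46. There were 4 AMPA, 5 kainate, 6 NMDA and 1 delta receptor probes, 8 metabotropic glutamate receptor probes, 11 GABA-A, 3 rho-type GABA-A and 2 GABA-B probes, and 3 glycine receptor probes.

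The study asked how anti-inflammatory compounds alter gene expression in cut rat spinal cord kept in culture. There were 7 groups of 3 samples, each sample on its own 2-colour array, 21 in all. The Uninjured group was freshly dissected cord, and the Injured 4 hr group was cord cultured for 4 hr with PBS and not pooled. The other groups were 4 hr cultures treated with CKIN, MP, acetaminophen (Acet), indomethacin (Indo) or NS398. Every array set its sample against a pool of 4 hr cultures: PBS-treated for Uninjured, Injured 4 hr, CKIN, MP and Acet, ethanol-treated (ETOH) for Indo, and DMSO-treated for NS398. Each treated group is thus injured, cultured cord as well, and the pools are vehicle cultures, not intact tissue. CKIN and MP are not spelled out in the labels. By background knowledge CKIN is likely a mix of cytokine inhibitors, and MP the glucocorticoid methylprednisolone. Acetaminophen is an analgesic, indomethacin blocks both cyclooxygenases, and NS398 prefers cyclooxygenase 2. Strain, age and dose are not given in the labels, nor whether replicates were separate animals or cultures, so a p-value here reflects only how far these samples spread, which may be technical.

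AMPA, kainate and NMDA receptors are cation channels opened by glutamate. AMPA receptors carry most fast excitation, NMDA receptors need the Grin1 subunit and admit calcium, and kainate receptors act on both sides of the synapse. Metabotropic glutamate receptors signal through G proteins: Grm5 belongs to the group coupled to phospholipase C, while Grm2, Grm3, Grm4, Grm6, Grm7 and Grm8 belong to groups that lower cyclic AMP. GABA-A and glycine receptors are chloride channels that inhibit neurons in the cord, and GABA-B receptors are G protein coupled pairs of Gabbr1 and Gabbr2. Calcium entry through glutamate receptors is a long-studied part of secondary damage after spinal cord injury.

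A value here is the log2 ratio of the sample to its reference pool. It was read as first over second RNA of the array's title, a direction that is likely but that no label states. As deposited, the median of an array lay between -4.13 and -3.11 for Uninjured, between -2.27 and -2.13 for Injured 4 hr, and between -1.63 and 0.69 for the 15 treatment arrays. Each array was therefore centred on its own median. A centred ratio says how a probe stands relative to the middle probe of its array, and 1 is 2-fold. Without centring the median probe was 1.47 higher in Injured 4 hr than in Uninjured, and 1.54, 1.66 and 1.64 higher in CKIN, MP and Acet than in Injured 4 hr. Many directions below therefore turn when the deposited ratios are used. A further setting, the corrected ratios, removed from each array its trend with the mean Injured 4 hr ratio, a stand-in for spot brightness, and then the median of each source plate. Per array, 3092 to 4916 probes had a value. Receptor probes were missing more often than others on treatment arrays (24.2% of their spots against 16.9% of all), but not on the other 6 arrays (2.71% against 3.63%). Exact ratios of small whole numbers (1 to 12) made up 4.73% to 7.14% of values on treatment arrays, 0.57% to 0.717% on Injured 4 hr and 0.0457% to 0.229% on Uninjured arrays. The number of arrays limits the precision throughout.

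**Figure D1:**
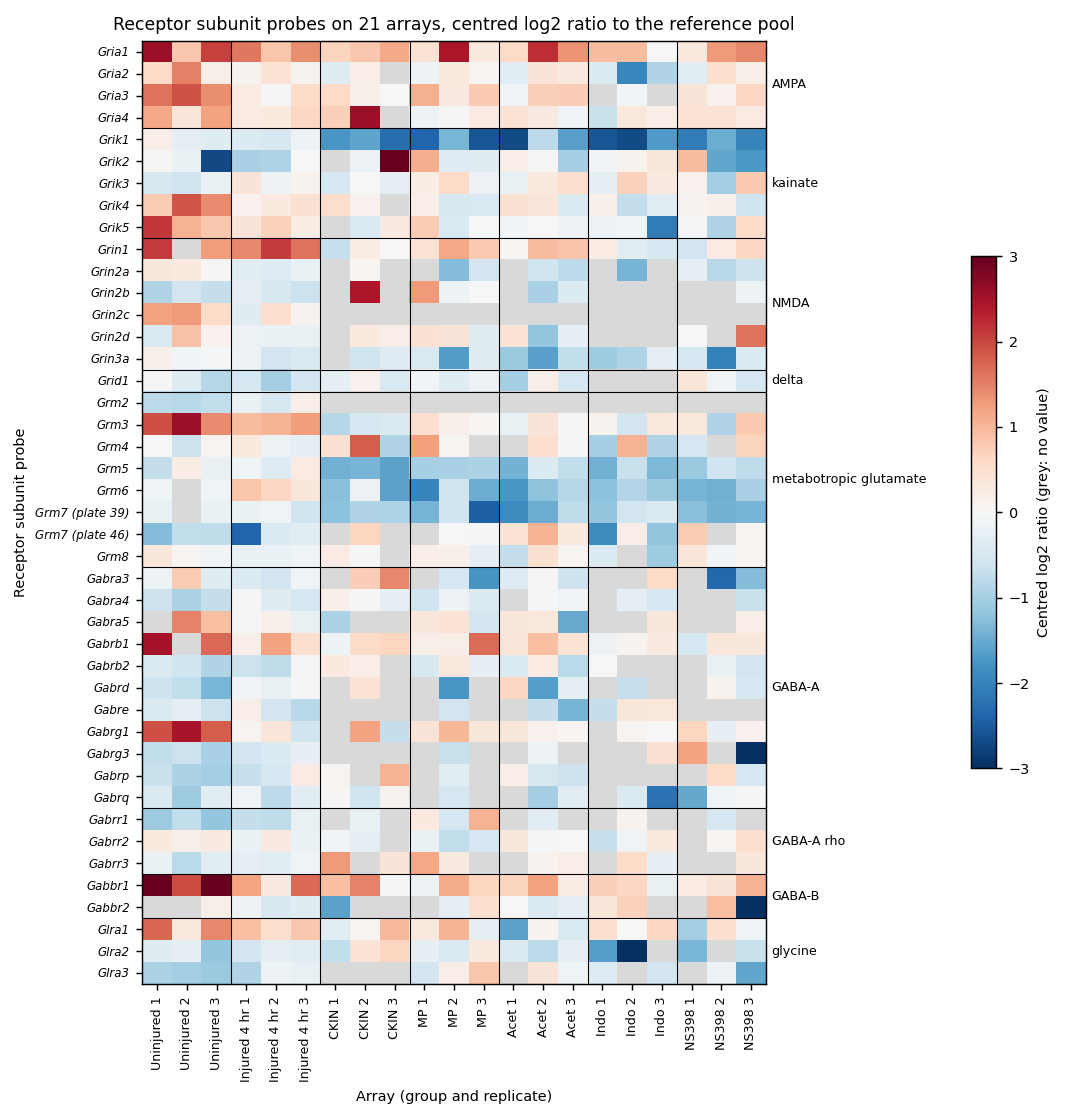
Centred log2 ratio of each of the 43 receptor subunit probes (rows, by receptor family) on each of the 21 arrays (columns, by group); red is above the array's median, blue below, and grey marks a missing value. Grik1, Grm5, Grm6 and the Grm7 probe of plate 39 are blue on all 15 treatment arrays. Gria3, Gabrg1 and Gabbr1 are red on all 3 Uninjured arrays, as are other probes such as Gria1, Grik4 and Grm3.

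Only 7 of the 43 probes were measured on all 21 arrays. Grin2c and Grm2 had no value on any treatment array, and 6 probes, these included, had values on fewer than 8 of those 15 arrays. The map of centred ratios by array shows these gaps, which lie mostly in the GABA-A and NMDA rows.

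The first comparison asks what differs between cord cultured for 4 hr and fresh cord. On centred ratios, 4 of 42 receptor probes tested were lower in the Injured 4 hr cultures than in fresh cord at an adjusted p under 0.05 and 0 were higher, whereas on deposited ratios 17 passed as higher and 0 as lower. Over all 4823 probes tested, 14.3% passed, 13.5% being lower and 0.809% higher, so the receptor probes' share lies near the background. The 4 were Gabrg1 and Gabrb1 of the GABA-A receptor, Gabbr1 of the GABA-B receptor and Gria3 of the AMPA receptor. The median change over the 42 was -0.15, beside -0.04 over all probes, and 23 of the 42 lay below 0. The 17 that passed as higher on deposited ratios were Grik1, Grik3, Grin1, Grin2b, Grm2, Grm5, Grm6, Gabra4, Gabrb2, Gabrd, Gabre, Gabrp, Gabrq, Gabrr1, Gabrr3, Glra2 and Glra3, beside 50.1% of all probes, and none of them passed on centred ratios. On corrected ratios 1 passed as higher and 1 as lower, where 7.24% of all probes passed.

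Gabrg1 encodes the gamma1 subunit of the GABA-A receptor. Its centred ratios were 1.93, 2.48 and 1.82 on the Uninjured arrays and 0.08, 0.36 and -0.59 on the Injured 4 hr arrays. The groups did not overlap, with 1.46 between the lowest fresh and the highest cultured array. The fall was -2.13 ± 0.42 (SE, 3 arrays each, adjusted p = 0.00197). On corrected ratios it was -2.27 (adjusted p = 0.00251). On deposited ratios the change was -0.60 and did not pass (adjusted p = 0.386), and it also missed the threshold after quantile (-1.13) and scale (-1.30) normalization. It passed with any 1 of the 6 arrays left out, at -2.33 to -1.86. Lack of overlap does not mark out the called probes, since uncalled ones such as Gabra5, Gabrd, Grik5 and Grin2a lacked it too. Its share over all probes was not counted. RNA from whole tissue cannot tell apart fewer cells of a type and less of Gabrg1 RNA per cell.

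Gabrb1 encodes a beta subunit that pairs with alpha and gamma subunits. It stood at 2.49 and 1.70 on the 2 Uninjured arrays with a value and at 0.19, 1.20 and 0.47 in the cultures. Again the groups did not overlap, but the gap was 0.50. The fall was -1.47 ± 0.46 (n = 3 and 2, adjusted p = 0.0373). It was -0.77 on corrected ratios and -0.15 on deposited ratios and passed on neither. It was also lost without Uninjured replicate 2, which has no value for this probe, or without Injured 4 hr replicate 1 or 3. The other 9 GABA-A probes did not pass. Gabra5, an alpha subunit found mostly outside synapses, stood at 1.49 and 0.91 in fresh cord and at -0.05, 0.15 and -0.21 in culture, a difference of -1.23 ± 0.53 (adjusted p = 0.137). Of those 9, Gabrd, the delta subunit of tonic inhibition, had the highest centred difference, at 0.79 ± 0.48 (adjusted p = 0.301), and passed on deposited ratios at 2.31 (adjusted p = 0.0184). None of the 3 rho-type probes passed. Gabrr1 was the farthest from 0, with -1.08, -0.74 and -1.16 in fresh and -0.72, -0.75 and -0.23 in cultured cord. Those ranges overlapped by a narrow margin, and the difference of 0.43 ± 0.40 turned to -0.12 after quantile and -0.18 after scale normalization, while on deposited ratios it was 1.95 and passed (adjusted p = 0.0297).

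Gabbr1 encodes the GABA-binding subunit of the GABA-B receptor. It had the highest mean centred ratio of any receptor probe in fresh cord, 2.80, from 3.17, 1.96 and 3.27, beside 1.18, 0.27 and 1.71 in culture. The groups did not overlap, though the lowest fresh and the highest cultured array were 0.25 apart. The fall of -1.75 ± 0.47 (adjusted p = 0.0165) was -0.88 on corrected ratios (adjusted p = 0.205) and -0.22 on deposited ratios. It was lost without Uninjured replicate 1 or 3 or Injured 4 hr replicate 2. Its partner Gabbr2 had a value on 1 Uninjured array (0.16) and could not be tested. Its cultured values were -0.16, -0.49 and -0.36.

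All 4 AMPA receptor probes had a centred difference below 0, and Gria3 passed. It stood at 1.64, 1.92 and 1.39 in fresh cord and at 0.25, -0.05 and 0.56 in culture, with no overlap. The fall was -1.39 ± 0.34 (adjusted p = 0.00879), -0.90 on corrected ratios (adjusted p = 0.0823) and +0.13 on deposited ratios, where the sign turns. It was lost without Injured 4 hr replicate 2. Gria1, Gria2 and Gria4 differed by -0.54, -0.55 and -0.52, none past the threshold, and on deposited ratios by 0.99, 0.98 and 1.01. Gria2, the subunit that keeps most AMPA receptors from passing calcium, therefore showed no difference that this test could separate from the spread between arrays.

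**Figure D2:**
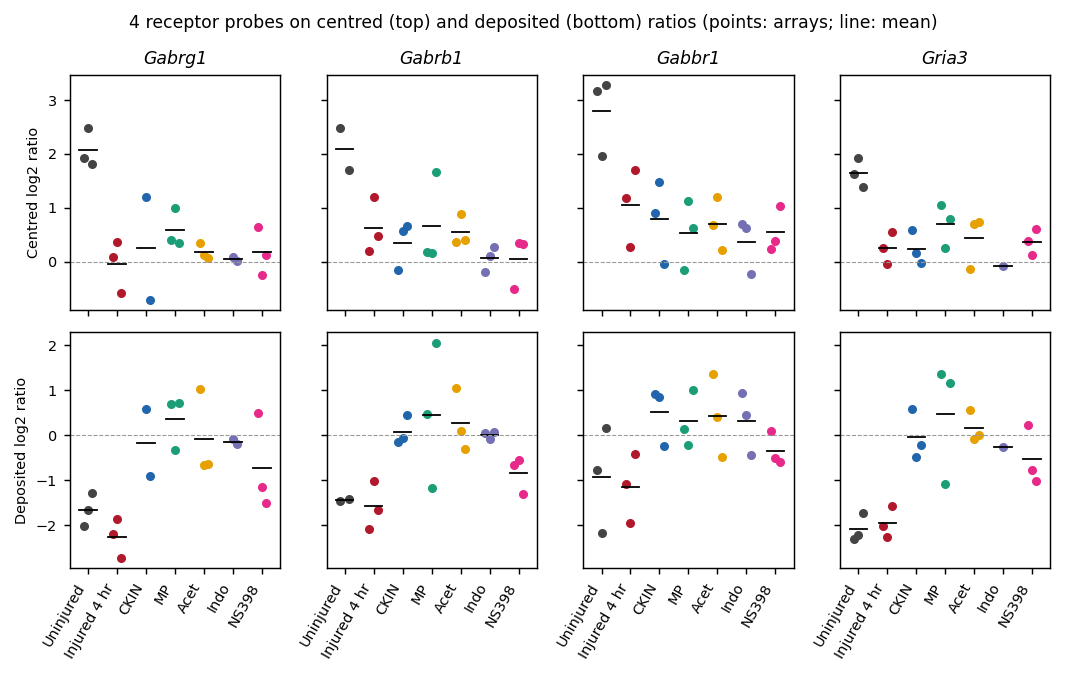
Ratios of Gabrg1, Gabrb1, Gabbr1 and Gria3 in every array by group (points: arrays, short line: group mean; log2, centred in the top row and as deposited in the bottom row). In the top row the Uninjured points lie above all Injured 4 hr points for each gene, and in the bottom row the 2 groups overlap for all 4 genes.

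No kainate, NMDA, delta, metabotropic or glycine receptor probe passed in this comparison on centred ratios. Grik4, a high-affinity kainate subunit, came nearest. Its fresh values of 0.76, 1.89 and 1.42 all lay above its cultured values of 0.13, 0.28 and 0.46, and the difference was -1.07 ± 0.36 (adjusted p = 0.0536), or +0.46 on deposited ratios. Grin2c, a modulatory NMDA subunit, had 1.21, 1.27 and 0.58 in fresh cord and -0.36, 0.51 and 0.10 in culture, a difference of -0.94 ± 0.38 (adjusted p = 0.125) that turned to +0.58 on deposited ratios. Both kept the 2 groups apart on the centred scale, with gaps of 0.31 and 0.08. Grin1 differed by 0.05 ± 0.43, or by 1.37 on deposited ratios, where it passed (adjusted p = 0.0273).

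Grm3, the group II receptor of astrocytes and neurons, had 1.95, 2.56 and 1.42 in fresh and 0.95, 1.02 and 1.25 in cultured cord. These did not overlap either, and the difference of -0.90 ± 0.39 did not pass (adjusted p = 0.126). Its direction is not settled, since it was +0.63 on deposited, +0.10 after quantile and +0.27 after scale normalization. Grid1, the only delta receptor probe, had -0.03, -0.35 and -0.85 in fresh and -0.52, -1.02 and -0.58 in cultured cord, which overlap (difference -0.29 ± 0.35, or +1.23 as deposited). Among glycine receptor subunits, Glra3 differed most, with -0.95, -1.03 and -1.11 in fresh and -0.91, -0.14 and -0.22 in cultured cord (0.60 ± 0.42, adjusted p = 0.363), and it passed on deposited ratios at 2.13 (adjusted p = 0.0131). Glra1, the main adult alpha subunit of the cord, overlapped between groups at 1.72, 0.32 and 1.45 against 0.90, 0.49 and 0.81.

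Grm6, best known from the retina, passed on corrected and on deposited ratios but not on centred ones. It was 1.45 higher in culture on corrected ratios (adjusted p = 0.0205), 2.04 on deposited ratios (adjusted p = 0.00673) and 0.72 ± 0.43 on centred ratios (adjusted p = 0.288), with -0.14 and -0.12 on the 2 Uninjured arrays that measured it and 0.83, 0.61 and 0.33 in culture. The Grm7 probes differed by -0.10 ± 0.44 (plate 39) and -0.11 ± 0.53 (plate 46). The first stood at -0.22 and -0.19 in fresh and -0.21, -0.10 and -0.60 in cultured cord, the second at -1.30, -0.73 and -0.76 and at -2.38, -0.43 and -0.33.

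**Figure D3:**
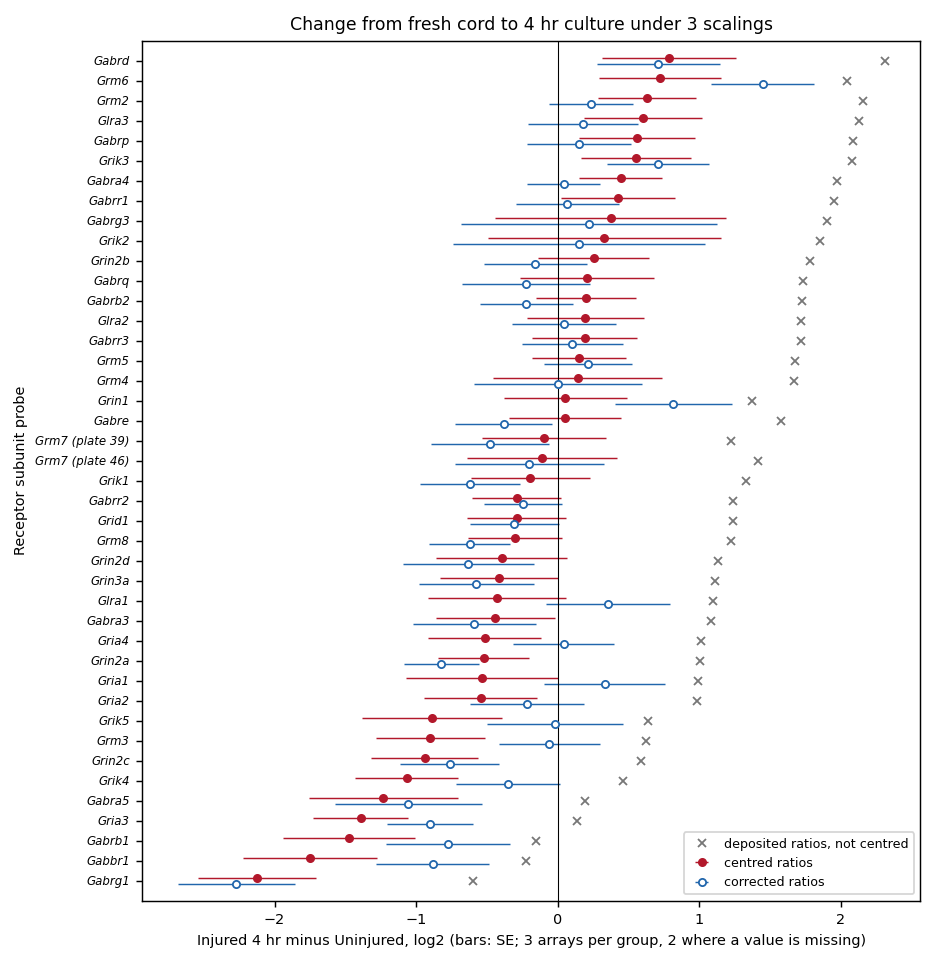
Difference between Injured 4 hr and Uninjured for the 42 receptor probes tested (rows), in log2 units, on centred ratios (filled points), corrected ratios (open points) and deposited ratios (crosses); bars are SE of the fit. Gabrg1 is lowest under all 3 settings, at -2.13, -2.27 and -0.60, and the crosses lie to the right of 0 for all but 3 probes.

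Other genes of amino acid transmission were compared in the same fit. Of 19 probes for transmitter synthesis, vesicle loading and uptake, 10 fell on centred ratios and 0 rose, with a median of -1.21. Over all probes 13.5% fell and 0.809% rose. Got1 fell by 2.60 and Got2 by 2.23 (aspartate aminotransferases that form glutamate), and Slc1a3 by 2.16 and Slc6a11 by 2.04 (glial uptake of glutamate and of GABA). On corrected ratios 2 of the 19 fell. Of 35 tested probes for scaffolds and other receptor partners, 6 fell and 0 rose, a share near that of all probes, with a median of -0.44. Among them were Camk2g (-2.24), Nsf (-3.08), which drives membrane fusion and binds AMPA receptors, Dlg4 (-1.55), the scaffold PSD-95, and Camk2d (-1.24, but +0.29 as deposited). On corrected ratios 4 fell and 1 rose. On deposited ratios Got1, Got2, Slc1a3, Slc6a11, Camk2g, Nsf and Dlg4 stayed below 0 (-1.56 to -0.02), but no probe of either list passed as lower there. Instead 4 of the 19 synthesis, loading and uptake probes and 11 of the 35 scaffold and partner probes passed as higher on deposited ratios, with medians of 0.31 and 1.08 beside 1.47 over all probes.

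Cell type markers moved in the same comparison, where 13.5% of all probes fell and 0.809% rose on centred ratios. Of 14 neuron probes 9 fell (median -2.10 on centred, -1.40 on corrected ratios), of 10 astrocyte probes 6 fell (median -1.83), both cholinergic and motor neuron probes tested fell, and 1 of 10 oligodendrocyte probes fell. Of the 7 microglia, 4 endothelium, 6 fibroblast and 3 blood probes, 0 passed on centred ratios. On deposited ratios, where 50.1% of all probes rose, 4 neuron probes fell and 0 rose, and 1 astrocyte probe fell and 1 rose. On that scale 3 oligodendrocyte, 5 microglia, 3 endothelium and 3 blood probes rose. The part of these shifts in the receptor changes was not tested. Ratios give no levels, so whether a defining marker is absent from the tissue cannot be read from them.

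As a rough background for tests against a pool, the Injured 4 hr arrays were also tested against 0, PBS culture against pooled PBS culture. On centred ratios 4 receptor probes passed above 0 and 1 below 0 of 43 tested, where 22.1% of all probes passed (21% above, 1.09% below). Grin1 (1.45, 2.09 and 1.63), Gria1 (1.58, 0.84 and 1.40), Grm3 and Gabbr1 were above the array median on each array, with means of 1.72, 1.27, 1.07 and 1.05. Grid1 passed below 0, at -0.70. The Grid1 call was lost with any 1 of the 3 arrays left out, those of Gria1 and Gabbr1 without Injured 4 hr replicate 1 or 3, and that of Grm3 without replicate 3. All 14 neuron marker probes passed above 0 on centred ratios, but on deposited ratios 1 passed above and 7 below. On deposited ratios the first 4 had means of -0.48, -0.93, -1.13 and -1.15, and all 43 receptor probes lay below 0, 42 of them past the threshold, beside 90.5% of all probes.

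The treatments were compared with the Injured 4 hr arrays where both had been set against pooled PBS culture. The pool cancels only if it was the same one, which the labels do not state. Ratios of small whole numbers made up at least 4.73% of values on treatment arrays and at most 0.717% on Injured 4 hr arrays. Treatment and array set therefore cannot be told apart in these comparisons. The 3 comparisons share those 3 control arrays, so a call in several of them is not independent. On centred ratios 5 receptor probes fell and 1 rose in CKIN of 31 tested, where 20% of all probes passed (18.6% lower, 1.47% higher), a share near that of the receptor probes. In MP 2 fell and 0 rose of 36, where 2.05% of all passed (2% lower, 0.0455% higher), and in Acet 1 fell and 0 rose of 39, where 1.31% of all passed (1.2% lower, 0.106% higher). The medians over the receptor probes were -0.01, -0.02 and -0.10, beside -0.38, -0.27 and -0.21 over all probes. All these falls turn on deposited ratios, on which 24, 28 and 24 receptor probes passed as higher and 0 as lower, beside 59.7%, 72.2% and 71.2% of all probes as higher. On corrected ratios 1 receptor probe passed as higher in CKIN and 1 as lower in each of MP and Acet, where 0.642%, 1.05% and 0.95% of all probes passed in CKIN, MP and Acet.

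Grik1, a kainate receptor subunit, was the lowest receptor probe in the treated cultures. It stood at 0.19, -0.28 and -0.37 in fresh cord and at -0.41, -0.48 and -0.14 in PBS culture. In CKIN it stood at -1.75, -1.59 and -2.27, in MP at -2.38, -1.37 and -2.56, and in Acet at -2.69, -0.79 and -1.63. No treated array overlapped a PBS or fresh one. The difference from PBS culture was -1.52 ± 0.42 in CKIN (adjusted p = 0.0192) and -1.76 ± 0.42 in MP (adjusted p = 0.0312), and -1.36 ± 0.42 in Acet did not pass (adjusted p = 0.108). On deposited ratios the 3 differences were +0.40, +0.22 and +0.57. The deposited mean of Grik1 was -2.55 in PBS culture and -2.14, -2.32 and -1.97 in CKIN, MP and Acet, so on that scale the probe was low against the pool in PBS culture too. Neither call held on corrected ratios (-1.15 and -1.36, adjusted p = 0.126 and 0.0663) or with any 1 Injured 4 hr array left out. The CKIN call was also lost without CKIN replicate 3, and the MP call without MP replicate 1 or 3.

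Grm6 fell in all 3 comparisons on centred ratios, with no such fall on deposited ratios (+0.33, +0.04 and +0.07). Against 0.83, 0.61 and 0.33 in PBS culture it stood at -1.25, -0.18 and -1.60 in CKIN, at -1.97, -0.60 and -1.48 in MP and at -1.75, -1.20 and -0.85 in Acet. No array overlapped. The falls were -1.60 ± 0.39 (adjusted p = 0.0109), -1.94 ± 0.39 (adjusted p = 0.0178) and -1.86 ± 0.39 (adjusted p = 0.0262). In MP and Acet the fall passed on corrected ratios as well (-1.63 and -1.48, adjusted p = 0.0248 and 0.0414), and in CKIN it did not (-0.98, adjusted p = 0.155). Corrected ratios were fitted to the mean Injured 4 hr ratio, so passing there is no independent support for a treatment fall. On that scale Grm6 also stood at -1.47 and -1.44 in fresh cord. In CKIN the call was lost without CKIN replicate 3. In MP and Acet it was lost without any 1 Injured 4 hr array, without MP replicate 1 or 3, or without Acet replicate 1. Lack of overlap with PBS culture was also seen in uncalled probes, such as Grin1 and Grm3 in MP and Acet. In MP 0 cell type marker probes passed, and in Acet 2 of 6 fibroblast probes fell.

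The other calls came from CKIN. Grin1, the obligatory NMDA subunit, stood at -0.69, 0.22 and -0.01 there, below its 1.45, 2.09 and 1.63 in PBS culture, a fall of -1.88 ± 0.39 (adjusted p = 0.00565). Grm3 stood at -0.85, -0.51 and -0.44 (fall -1.68 ± 0.39, adjusted p = 0.00773) and Grm5, a group I receptor, at -1.45, -1.40 and -1.62 against -0.12, -0.38 and 0.24 (fall -1.40 ± 0.34, adjusted p = 0.0098). None of these arrays overlapped those of PBS culture. All 3 turned on deposited ratios, to +0.05, +0.25 and +0.52, and none passed on corrected ratios (-0.36, -0.84 and -0.77). The Grm5 call was lost without Injured 4 hr replicate 3. Grin1 in CKIN did not differ from the PBS pool itself (-0.16 ± 0.28, adjusted p = 0.771). Grm3 also lost its CKIN call against that pool (mean -0.60), while Grm5, Grm6 and Grik1 kept theirs. The median probe of the plates that held these members was -0.75 (plate 39, Grin1 and Grm6), -0.90 (plate 41, Grm5), -0.62 (plate 43, Grik1) and -0.27 (plate 50, Grm3) in this comparison. Beside 18.6% of all probes, 5 of 9 oligodendrocyte, 3 of 14 neuron, 3 of 10 astrocyte, 1 of 5 microglia and 1 of 5 fibroblast marker probes fell too, and 0 rose. Their part in the receptor falls was not tested.

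Gabra3, a GABA-A alpha subunit, was the only receptor probe that rose in CKIN, at 0.74 and 1.45 on 2 arrays against -0.41, -0.57 and -0.11 in PBS culture. The rise was 1.46 ± 0.47 (adjusted p = 0.0394), 3.25 on deposited ratios and 0.92 on corrected ratios, where it did not pass (adjusted p = 0.397). It was lost without any 1 Injured 4 hr array, and also when CKIN was tested against the PBS pool itself. Grik2 had the largest difference above 0, 2.39 ± 0.90 (adjusted p = 0.0633), from CKIN values of -0.17 and 3.69 that lie far apart. Gria4 stood at 0.71 and 2.58 on its 2 CKIN arrays against 0.26, 0.30 and 0.62. Its difference of 1.25 ± 0.45 did not pass on centred ratios (adjusted p = 0.0525) and passed on corrected ratios (1.75, adjusted p = 0.0489), on which it was the only receptor probe to pass. All 6 calls in CKIN and both in MP were lost when the arrays with more than 1100 missing spots, among them all 3 CKIN and 2 of the 3 MP arrays, were fitted as a block, while Grm6 in Acet passed (adjusted p = 0.026). No Injured 4 hr array was in the block, so it nearly coincided with CKIN and its losses there cannot be read. Of the Acet arrays only replicate 1 was in it, so passing there says little about array differences.

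In MP and Acet no receptor probe rose on centred ratios. The largest difference above 0 in each was the Grm7 probe of plate 46, 1.01 ± 0.59 in MP (values -0.02 and -0.04) and 1.62 ± 0.53 in Acet (0.40, 1.02 and 0.30), against the scattered PBS values of -2.38, -0.43 and -0.33 (adjusted p = 0.38 and 0.138). Of the scaffold and partner probes, 6 of 29 fell in CKIN, 1 of 35 in MP (Dlgap3, -1.47) and 0 of 35 in Acet. Of all probes 18.6%, 2% and 1.2% fell in these comparisons, so the list lies near the background. The lowest p values in CKIN belonged to Gripap1 (-1.91) and Dlgap3 (-1.68), then Gabarap (-1.48), a GABA-A receptor binding protein, and Gabarapl2 (-1.28, probe 52H07). Another Gabarapl2 probe, 28E04, was not among the calls in CKIN and passed above 0 in NS398 (1.28). Beside the same shares of all probes, 3 of 18 synthesis and uptake probes fell in CKIN, 1 of 19 in MP and 0 of 19 in Acet. They were Abat, which degrades GABA, in CKIN (-1.53) and MP (-1.58), and Gad1, which makes GABA (-1.36), and Got2 (-1.21) in CKIN. On deposited ratios these partner differences all lay between +0.01 and +0.68, and none of them passed on corrected ratios.

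Tested against one another, without the Injured 4 hr arrays, the 3 treatments gave 0 receptor calls. Between CKIN and MP 0 of 29 receptor probes and 0% of all 3634 probes passed in limma, with 4 receptor probes and 552 of all at an unadjusted p under 0.05. Between CKIN and Acet it was 0 of 31, where 0.16% of all 3751 probes passed. There 3 receptor probes and 655 of all had an unadjusted p under 0.05. Between MP and Acet it was 0 of 35, where 0.0228% of all 4380 probes passed. In that comparison 1 receptor probe and 275 of all had an unadjusted p under 0.05. Gabra3 differed most between CKIN and MP, by 2.24 ± 0.52 (adjusted p = 0.0896), from 0.74 and 1.45 in CKIN and -0.53 and -1.76 in MP. Grm3 was below the array median on all 3 CKIN arrays and above it on all 3 MP arrays (0.50, 0.16 and 0.07), and the difference of -0.85 ± 0.39 did not pass (adjusted p = 0.298).

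Indo and NS398 could be compared only with their ethanol and DMSO pools. A pool counts as 1 control sample, and the test leaves out how far such pools spread. In Indo, 6 of 29 receptor probes passed below 0 and 0 above it, where 13.3% of all probes passed, 10.7% being lower and 2.6% higher. In NS398, 7 of 35 passed below 0 and 0 above it, where 22% of all passed, 11.3% being lower and 10.7% higher. The receptor medians were -0.28 and -0.12, beside 0.02 and -0.02 over all probes. On deposited ratios, where the median shift was small in Indo (-0.03), 4 passed below 0 in Indo and 15 in NS398, beside 6.99% and 42.9% of all probes. On corrected ratios 4 receptor probes passed below 0 in Indo, where 9.75% of all probes passed. In NS398 4 passed below and 2 above 0 on that scale, where 13.1% of all probes passed. The 2 were Grin2d (1.35, adjusted p = 0.0378) and Grid1 (0.74, adjusted p = 0.036), whose centred means of 0.81 and -0.09 did not pass and whose deposited means were -0.08 and -0.98.

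Grik1 was again the lowest kainate probe, at -2.57, -2.69 and -1.70 in Indo (mean -2.32 ± 0.30 SE, adjusted p = 2.01e-05) and at -2.09, -1.48 and -2.00 in NS398 (-1.86 ± 0.30, adjusted p = 0.000198). Both means were far from 0 on deposited (-2.38 and -2.75) and corrected (-1.55 and -1.10) ratios, and each passed with any 1 array left out. Grm6 stood at -1.24, -0.88 and -1.10 in Indo (-1.07 ± 0.28, adjusted p = 0.00996) and at -1.39, -1.45 and -0.98 in NS398 (-1.27 ± 0.28, adjusted p = 0.00254), and passed on deposited and corrected ratios as well. In Indo it was lost without replicate 1 or 3. Grm5 was below in both, at -1.44, -0.66 and -1.35 in Indo (-1.15 ± 0.24, adjusted p = 0.00157) and at -1.11, -0.60 and -0.75 in NS398 (-0.82 ± 0.24, adjusted p = 0.0174). On corrected ratios Grm5 passed in neither (-0.48 and -0.26), and in NS398 it was lost without replicate 1 or 3.

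Glra2, the alpha subunit that prevails in the fetal cord, was below the pool with values on 2 arrays of each group. It stood at -1.66 and -3.01 in Indo (-2.34 ± 0.36, adjusted p = 0.000122) and at -1.36 and -0.68 in NS398 (-1.02 ± 0.36, adjusted p = 0.0481). On corrected ratios it passed in Indo (-2.14) and not in NS398 (-0.56), where the call was also lost without replicate 2, an array with no value for it. In PBS culture it had lain at -0.57, -0.30 and -0.33. In Indo, Gria2 was also below, at -0.42, -1.95 and -0.90 (-1.09 ± 0.29, adjusted p = 0.0113), a call lost without replicate 2 and on deposited ratios, and Gabrq, the theta subunit, at -0.44 and -2.21 (-1.33 ± 0.41, adjusted p = 0.0357), a call lost on corrected and deposited ratios. The highest Indo mean was that of Gria1, at 0.92, 0.93 and 0.02 (0.62 ± 0.37, not passed).

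In NS398, Gabra3 was below at -2.35 and -1.30 (-1.83 ± 0.37, adjusted p = 0.00217), and the plate 39 Grm7 probe at -1.26, -1.41 and -1.41 (-1.36 ± 0.28, adjusted p = 0.00178). Both also passed on deposited and corrected ratios. Grin3a, an NMDA subunit that lowers calcium entry, stood at -0.52, -2.03 and -0.44 (-1.0 ± 0.30, adjusted p = 0.0201). That call was lost without replicate 2 and on corrected ratios. Gria1 had the highest mean, at 0.32, 1.28 and 1.44 (1.01 ± 0.38, adjusted p = 0.0572), and passed after quantile and scale normalization. With only the 3 NS398 arrays in the fit, 1 of the 7 calls was left, that of Grik1. Of the scaffold and partner probes, 6 of 28 passed below and 1 above 0 in Indo, beside 10.7% and 2.6% of all probes, and 6 of 36 below and 5 above in NS398, beside 11.3% and 10.7%. On deposited ratios the counts were 6 below and 0 above in Indo and 14 below and 0 above in NS398, so that none of the 5 higher calls held there. On corrected ratios they were 2 and 2 in Indo and 4 below and 3 above in NS398. The lowest p values in Indo were those of Nrxn2 (-1.87), Dlgap2 (-2.60), Dlg2 (-1.82) and Nrxn3 (-1.64). In NS398 they were those of Dlgap3 (-1.66), Dlgap2 (-2.79), Nrxn3 (-2.00) and Nrxn2 (-1.45). Of these, Dlg2 in Indo and Dlgap3 and Nrxn3 in NS398 also passed on corrected ratios. Nrxn2 passed there in neither group and Nrxn3 not in Indo, and Dlgap2 had no corrected test. Of the synthesis and uptake probes, Abat passed below 0 in both (-1.97 and -1.42). Glud1, which interconverts glutamate and ketoglutarate, passed above 0 in both (1.40 and 2.02), and Slc1a1, a neuronal glutamate carrier, in Indo (0.87). On corrected ratios Abat passed in both, and Glud1 and Slc1a1 did not. In NS398 4 of 6 fibroblast, 2 of 2 blood, 2 of 10 astrocyte, 2 of 9 oligodendrocyte and 1 of 14 neuron marker probes passed above 0 on centred ratios, and of 4 endothelium probes 1 passed above and 1 below. Of the fibroblast probes 3 passed above 0 on deposited and 4 on corrected ratios. Of the 14 neuron probes 5 passed below 0 on deposited ratios, beside 42.9% of all probes. On corrected ratios 7 passed below 0, where 13.1% of all probes passed in either direction. On both of these scales 0 neuron probes passed above 0. The neuron median was 0.20 on centred, -0.69 on deposited and -0.54 on corrected ratios, beside -0.02, -0.98 and -0.01 over all probes. In Indo 1 of 14 neuron, 1 of 3 blood and 1 of 2 cholinergic probes passed above 0 and 1 of 4 endothelium probes below. Their part in the receptor values was not tested.

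Read across all 15 treatment arrays, 4 of the 11 receptor probes measured on every one were below the array median throughout, beside 11.9% of the 2018 probes of any kind measured on all 15. They were Grik1 (-2.69 to -0.79, median -2.00), Grm6 (-1.97 to -0.18, median -1.24), the plate 39 Grm7 probe (-2.45 to -0.42, median -1.23) and Grm5 (-1.62 to -0.42, median -0.99). This set was picked with its values known and is a description. Grin3a was below on each of the 14 treatment arrays that measured it (-2.03 to -0.29). Gria1 was above on all 15 (0.02 to 2.45), as were 7.88% of all such probes. Against the PBS pool, Grik1 and Grm6 passed in CKIN (-1.87 and -1.01), MP (-2.10 and -1.35) and Acet (-1.70 and -1.27), on deposited and corrected ratios too. On deposited ratios PBS culture was low as well, with Injured 4 hr means of -2.55 for Grik1 and -1.61 for Grm6. On corrected ratios the Injured 4 hr values are 0 by construction. Passing on those scales therefore does not set the treated cultures apart from PBS culture. Of all probes, 10.2%, 15.1% and 13.4% passed as lower than the PBS pool on centred ratios in CKIN, MP and Acet. The shares were 9.75%, 11.8% and 14.1% on deposited and 8.22%, 7.26% and 5.2% on corrected ratios.

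The 2 probes of Grm7, a presynaptic receptor with low affinity for glutamate, disagreed. The plate 39 probe stood at -1.23, -0.91 and -0.91 in CKIN, at -1.40, -0.60 and -2.45 in MP, at -1.91, -1.48 and -0.77 in Acet and at -1.16, -0.56 and -0.42 in Indo. The plate 46 probe had 11 values on treatment arrays, of which 4 were below the median, and a median of 0.20. It stood at 0.63 on its 1 CKIN array, at -1.88, 0.20 and -1.19 in Indo and at 0.76 and 0.08 in NS398. A statement about Grm7 therefore depends on the probe. The differences of the plate 39 probe from PBS culture (-0.72, -1.18 and -1.08 in CKIN, MP and Acet) did not pass and turned to +1.21, +0.80 and +0.85 on deposited ratios.

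**Figure D4:**
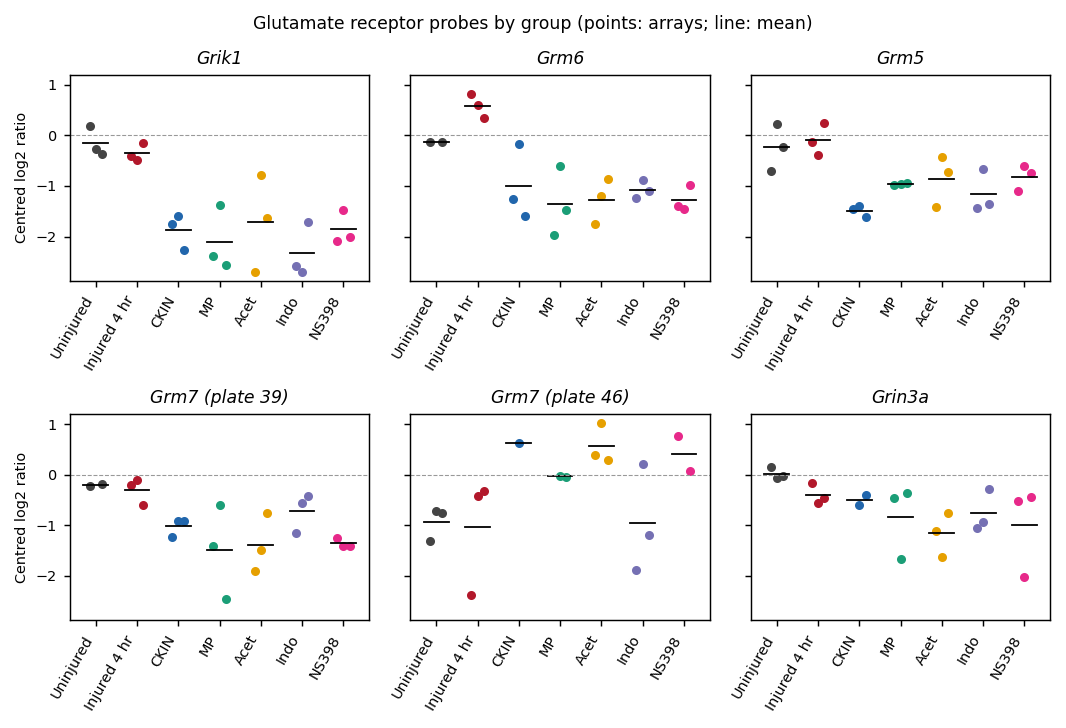
Centred log2 ratio of Grik1, Grm6, Grm5, both Grm7 probes and Grin3a in every array by group (points: arrays, short line: group mean, dashed line: array median). Grik1, Grm6, Grm5 and the plate 39 Grm7 probe lie below the dashed line on all 15 treatment arrays, while the plate 46 Grm7 probe lies on both sides of it.

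The 4 probes that were low on every treatment array stand for genes on different chromosomes. Their RefSeq sequences for the 250 bases before the annotated gene start (build GRCr8, 5′ to 3′ on the strand of the gene) are shown because these probes were low together, with Grm7 included for its plate 39 probe only, since its plate 46 probe was below the median on 4 of 11 treatment arrays. Capitals mark matches to the Sp1 box GGGCGG on either strand. They are Grik1 at chr11:41056504-41056753 (minus strand), Grm5 at chr1:150733503-150733752 (plus), Grm6 at chr10:35668753-35669002 (plus) and Grm7 at chr4:145286476-145286725 (plus).
Grik1: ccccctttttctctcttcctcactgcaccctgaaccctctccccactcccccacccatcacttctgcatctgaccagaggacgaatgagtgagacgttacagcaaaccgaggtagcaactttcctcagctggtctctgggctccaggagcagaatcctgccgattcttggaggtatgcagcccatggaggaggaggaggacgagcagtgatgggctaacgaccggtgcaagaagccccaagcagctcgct
Grm5: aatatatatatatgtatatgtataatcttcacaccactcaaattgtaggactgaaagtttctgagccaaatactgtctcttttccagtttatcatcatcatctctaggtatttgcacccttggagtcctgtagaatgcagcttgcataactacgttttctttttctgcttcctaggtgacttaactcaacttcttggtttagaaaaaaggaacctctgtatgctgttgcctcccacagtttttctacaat
Grm6: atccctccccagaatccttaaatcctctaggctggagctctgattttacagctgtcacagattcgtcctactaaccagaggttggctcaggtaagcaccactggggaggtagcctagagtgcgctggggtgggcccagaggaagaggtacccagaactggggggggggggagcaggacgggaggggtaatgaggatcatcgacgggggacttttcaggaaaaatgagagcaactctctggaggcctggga
Grm7: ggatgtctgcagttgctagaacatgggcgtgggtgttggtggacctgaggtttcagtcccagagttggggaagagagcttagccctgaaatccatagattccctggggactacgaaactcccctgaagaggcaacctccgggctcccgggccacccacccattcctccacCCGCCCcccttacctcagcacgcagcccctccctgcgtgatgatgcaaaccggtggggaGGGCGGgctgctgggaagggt

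Grm7 held 2 Sp1 boxes, on opposite strands, and the other promoters held 0. Of all 33469 RefSeq promoters of the same length, 30.5% held at least 1. None of the 4 held a cyclic AMP response element (TGACGTCA, in 1.59% of all), an AP-1 element (TGANTCA, 6.34%), a glucocorticoid response element (AGAACA, any 3 bases, then TGTTCT, 0.012%) or a TATA box (TATAAA, 12.9%) on either strand. No motif of these 5 was thus common to the 4. Their base composition differed, with a G and C content of 57.6% in Grik1, 56.8% in Grm6 and 62% in Grm7, but 36.4% in Grm5, and with 8, 5, 9 and 1 CpG pairs in that order. Of the 42 receptor genes 31 matched a promoter entry, and 13 of these held an Sp1 box. Absence of a match says only that those letters are not in this window.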

How the data were processed

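Per the labels, each of the 21 arrays carried total RNA of a sample beside a culture pool. The authors deposited log2 ratios, a base inferred from the values. How spots were dyed, scanned, filtered and normalized is not given in the sources used here. Blank cells were taken as missing. Symbols came from the platform annotation, and 0 of the members' symbols differ from the current RefSeq ones. The 51 Gapdh control spots were averaged, leaving 4912 measured probes, and each array was centred on its median.

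All arrays entered 1 fit with a coefficient per group in limma 3.58.1 (R 4.3.3) with moderated statistics, tested on simulated data beforehand. Testing required values on at least 2 arrays per compared group. P-values are 2-sided and Benjamini-Hochberg adjusted over all probes tested, with a threshold of 0.05. Errors of differences are standard errors of that fit. There were 10 main comparisons: 4 that share the Injured 4 hr arrays, between groups set against pooled PBS culture, 3 against 0 and 3 between treatments. CKIN, MP and Acet were also each tested against 0, that is, against their PBS pool. Corrected ratios are each array's residuals from a loess fit (span 0.4) to the mean Injured 4 hr ratio, after which source plates of 20 probes or more were set to a median of 0. That mean ratio only stands in for brightness, and Injured 4 hr ratios are 0 by construction there. A probe's corrected value on any array thus depends on its Injured 4 hr values. Other alternatives were deposited, quantile and scale normalized ratios, stricter and looser filters, blocks, fewer arrays and robust shrinkage.

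Members and lists were chosen with earlier results of these data known. Values on every array are given for each member that passed in any comparison, the member of each receptor family with the largest culture difference, both Grm7 probes, and the largest difference either way in each treatment. Partner genes are named where they passed, up to 4 per list by p. Gene lists were counted, not tested as sets.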

Additional observations from a re-analysis of the deposited data

How the results depend on the processing

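Most calls depended on the scaling. On deposited ratios the receptor probes called numbered 17 instead of 4 in Injured 4 hr minus Uninjured, 24 instead of 6 in CKIN, 28 instead of 2 in MP, 24 instead of 1 in Acet, 15 instead of 7 in NS398 and 42 instead of 5 in Injured 4 hr against 0. Quantile ratios gave 0 in the first, 1 in MP, 8 in Injured 4 hr against 0, 1 in CKIN minus MP and 2 in CKIN minus Acet (0 in the last 2 on centred ratios). Scale normalization gave 0, 4 in MP, 5 in Acet and 8 in Injured 4 hr against 0. Corrected ratios gave 2 in Injured 4 hr minus Uninjured and 1 each in CKIN and MP. With only the compared arrays in the fit the counts were 11, 0 in MP, 1 in NS398 and 15 in Injured 4 hr against 0. The 10 arrays with more than 1100 missing spots, among them every CKIN and no Injured 4 hr array, left 0 in CKIN and in MP when fitted as a block. Against the PBS pool 10 passed in MP and 7 in Acet. Testing probes with 1 array gave 1 in CKIN minus Acet. Leaving out 1 array gave 2 to 3 in Injured 4 hr minus Uninjured, 3 to 6 in CKIN, 0 to 4 in MP, 0 to 2 in Acet, 4 to 6 in NS398 and 2 to 4 in Injured 4 hr against 0. Over all probes, 690 were called in Injured 4 hr minus Uninjured, but 2428 on deposited, 20 on quantile, 33 on scale and 349 on corrected ratios. In CKIN 749 were called, but 2232 on deposited and 24 on corrected ratios and 8 with the block of arrays. Apart from these totals and the shares given in earlier paragraphs, no share over all probes is given for the other settings and comparisons. Receptor counts without such a share cannot be set against a background. The cause of the shifts between settings was not tested.

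Signs turned on deposited ratios. In Injured 4 hr minus Uninjured they became 0.13 (Gria3), 0.46 (Grik4), 0.58 (Grin2c), 0.63 (Grm3), 1.23 (Grid1), 1.22 (Grm7, plate 39) and 1.41 (Grm7, plate 46). In CKIN they became 0.0461 (Grin1), 0.25 (Grm3), 0.52 (Grm5), 0.33 (Grm6), 0.40 (Grik1) and 1.21 (Grm7, plate 39), in MP 0.0408 (Grm6), 0.22 (Grik1) and 0.80 (Grm7, plate 39), and in Acet 0.0697 (Grm6) and 0.85 (Grm7, plate 39). Injured 4 hr against 0 became -0.48 (Grin1), -0.93 (Gria1), -1.13 (Grm3) and -1.15 (Gabbr1), and NS398 became -0.47 (Grm7, plate 46). Quantile and scale ratios gave -0.12 and -0.18 for Gabrr1 and 0.10 and 0.27 for Grm3 in Injured 4 hr minus Uninjured. There the Grm7 probes turned to 0.0495 (plate 39) without Injured 4 hr replicate 3, with leave-one-out values from -0.20 to 0.0495, and to 0.55 (plate 46) without Injured 4 hr replicate 1, from -0.47 to 0.55. Against the PBS pool the plate 46 probe in MP was -0.0307.

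Replicate numbers did not pair the arrays. Of 63 same-number pairs 7 had deviations correlated above 0.1 (median 0.00271, from -0.235 to 0.514), and 6 of 21 arrays correlated best with their own number. With a replicate block the counts were 4, 7, 2, 1, 6, 7 and 5 in Injured 4 hr minus Uninjured, CKIN, MP, Acet, Indo, NS398 and Injured 4 hr against 0, and 0 between treatments. Only Gabra3 in CKIN and Grid1 in Injured 4 hr against 0 lost their call under it. Robust shrinkage changed none of the 31 calls. Signal over background is not in the values, so dim spots could not be told from bright ones.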
